A study of Mus musculus with 3 samples.

Results

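Levels of 10 heat shock and chaperone genes were followed through 3 RNA-seq libraries of mouse epiblast stem cells (EpiSCs). The genes were taken by name from among the 17209 listed in any library, and all 10 were among the 12955 that passed a filter on low values (mean over the libraries of 1 CPM or more, where CPM is a count scaled to library size). EpiSCs are pluripotent cells that resemble the epiblast after implantation. The cells were of strain 129 at passage 1, as labelled, and were kept on gelatin in serum with both inhibitors used here. The IWR1 library came from cells given 2 µM IWR1, a tankyrase inhibitor that dampens Wnt signalling, for 12 h. The Y27 library came from cells given 0.5 µM Y27 for 12 h, an inhibitor named here as the labels give it. The NT library came from cells from which both inhibitors had been withdrawn overnight, so a difference from NT may belong to withdrawal or to treatment, which cannot be told apart. It is not stated whether inhibitors were also withdrawn before the 12 h treatments. Each group was 1 library, so no difference has a replicate check and no test between groups was made. In bulk RNA, a change in the make-up of the cells and a change in RNA per cell cannot be told apart.

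Heat shock proteins help other proteins fold, keep unfolded chains from clumping and hand damaged ones on for repair or degradation. Many of their genes carry heat shock elements, arrays of the short motif GAA in alternating directions, to which heat shock factor 1 (Hsf1) binds when unfolded protein builds up. The genes fall into families by the size of the protein. Hspa8 is the constitutive cytosolic HSP70, Hspa4 and Hsph1 are HSP110 relatives that help it exchange nucleotide, and Dnajb1 is a J-domain partner that stimulates its ATPase. Hsp90aa1 and Hsp90ab1 are the more inducible and the more constitutive form of cytosolic HSP90, which matures kinases, receptors and other clients. Hspd1 and Hspe1 are the mitochondrial chaperonin HSP60 and its lid HSP10, and Hspb1 is a small heat shock protein that also binds the actin cytoskeleton.

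Heat shock elements near the starts of the genes are shown first. Of the 4 genes found to carry them, Hspd1 was above NT and Hspb1 below it in both inhibitor libraries. In IWR1 over Y27 all 4 were higher, Hspd1 and Hsph1 within counting error. That direction was not particular to them. It was seen in 9 of the 10 members, among them Hspa4 and Dnajb1, which were searched and had no element. RefSeq promoter sequences (GRCm38.p6) were found for 6 of the 10 members, Hspd1, Hspe1, Hspb1, Hsph1, Dnajb1 and Hspa4. The remaining members were not searched. The 250 bases before each start were searched on both strands for the pairs GAANNTTC and TTCNNGAA, which read the same on either strand, and for the triples GAANNTTCNNGAA and TTCNNGAANNTTC, which contain overlapping pairs. Capitals mark the pairs in the following stretches, which run 5′ to 3′ on the strand of the gene. The first lies at chr1:55088053-55088082 (plus strand), 95 to 66 bases before the start of Hspe1. The second lies at chr5:135887777-135887854 (plus strand), 142 to 65 bases before the start of Hspb1. The third lies at chr5:149636351-149636380 (minus strand), 44 to 15 bases before the more upstream of the Hsph1 starts.
Hspe1: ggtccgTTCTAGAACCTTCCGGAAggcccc
Hspb1: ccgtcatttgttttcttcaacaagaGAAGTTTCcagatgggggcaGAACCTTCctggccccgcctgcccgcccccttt
Hsph1: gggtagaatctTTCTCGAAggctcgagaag

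The Hspe1 stretch held 3 overlapping pairs, which make 2 overlapping triples. Hspd1 and Hspe1 lie head to head, and the same array, at chr1:55088059-55088076, lies 144 to 127 bases before the more downstream of the annotated Hspd1 starts. It lies after the more upstream of these starts. The array or its near flanks overlap an annotated untranslated region, as do the Hsph1 pair or its near flanks. Hspb1 had 2 separate pairs, and Hsph1 had 1. A pair was present before 14.5% of the 27025 genes in the promoter table and a triple before 0.514% of them. Neither was found in these windows of Dnajb1 and Hspa4. A match of letters is a description and does not show binding.

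The members differed widely in level. Per length (FPKM, as deposited), Hsp90ab1 stood at 2341 FPKM in IWR1, 2199 FPKM in Y27 and 2476 FPKM in NT. By FPKM it ranked 8 of 15720 genes listed in IWR1, 7 of 15867 in Y27 and 9 of 15623 in NT. Hspa8 followed at 1767 FPKM in IWR1, 1566 FPKM in Y27 and 1894 FPKM in NT. At the low end Hsf1, the transcription factor itself, was at 25.4 FPKM in IWR1, 24.7 FPKM in Y27 and 23.0 FPKM in NT, from 287, 272 and 268 counts. Together the 10 members held 1.40% of the counts in IWR1 (exact binomial 95% interval 1.39 to 1.41%), 1.31% in Y27 (1.30 to 1.32%) and 1.35% in NT (1.34 to 1.36%). Intervals here and below cover counting error only.

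The order of the genes by FPKM differed between libraries in the middle ranks. Hsp90ab1 was first and Hspa8 second in every library. Hsp90aa1 ranked 3 in IWR1 and in Y27, 1.68 times the next gene in IWR1 (1.59 to 1.77) and 1.91 times the next in Y27 (1.84 to 1.97). In NT, Hsp90aa1 at 380 FPKM and Hspe1 at 384 FPKM did not differ beyond counting error (ratio of Hspe1 to Hsp90aa1 1.01, 0.959 to 1.07). Hspb1 at 175 FPKM and Hspa4 at 170 FPKM were likewise level in NT (ratio 1.03, 0.953 to 1.10), whereas Hspa4 was 1.56 times Hspb1 in IWR1 (1.43 to 1.69) and 2.42 times in Y27 (2.17 to 2.70). Dnajb1 and Hsf1, the lowest pair, did not differ beyond counting error in IWR1 (ratio 1.15, 0.985 to 1.35).

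**Figure D1:**
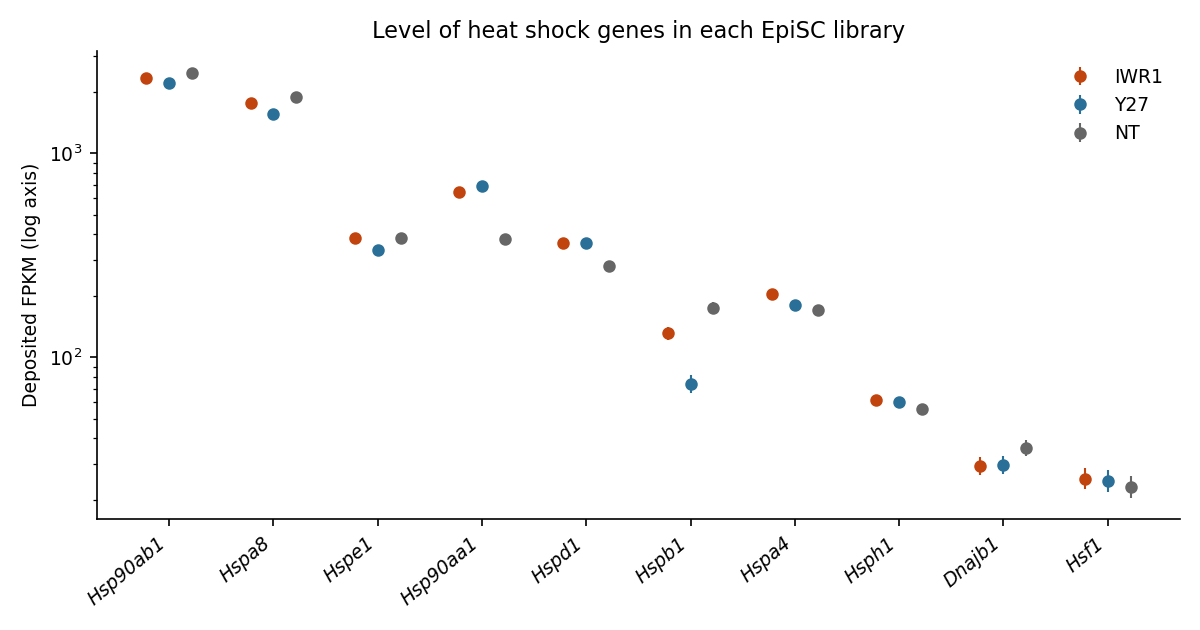
Deposited FPKM (log axis) of the 10 genes in the IWR1, Y27 and NT libraries, with 95% Poisson intervals of the counts, 1 library per point. Hsp90aa1 stands at 648 and 689 FPKM in IWR1 and Y27 against 380 in NT, and Hspb1 at 131 and 74.2 FPKM against 175 in NT.

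Hsp90aa1 was higher than NT in both inhibitor libraries, and Hsp90ab1 was slightly lower. Hsp90aa1 (Entrez Gene 15519) had 10406 counts in IWR1, 10755 in Y27 and 6271 in NT, which are 1859, 1928 and 1109 CPM. Both inhibitor libraries were above NT and close to each other. The fold over NT was 1.68 in IWR1 (exact conditional 95% interval 1.62 to 1.73) and 1.74 in Y27 (1.68 to 1.79), and IWR1 stood at 0.964 of Y27 (0.939 to 0.991). Hsp90ab1 (Entrez Gene 15516) was at 5895 CPM in IWR1, 5405 CPM in Y27 and 6355 CPM in NT, where its count was fractional, so it was 1.08-fold lower than NT in IWR1 (1.06 to 1.09) and 1.18-fold lower in Y27 (1.16 to 1.19). The ratio of Hsp90aa1 to Hsp90ab1 within a library does not depend on how libraries are scaled. By FPKM it was 0.277 in IWR1 (0.271 to 0.283), 0.313 in Y27 (0.306 to 0.320) and 0.153 in NT (0.149 to 0.157). On counts the ratio was 1.81 times that of NT in IWR1 (Wald 95% interval 1.75 to 1.87) and 2.04 times in Y27 (1.97 to 2.12). Hsp90aa1 made up 21.7% of the summed FPKM of both genes in IWR1, 23.8% in Y27 and 13.3% in NT.

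Hsp90aa1 was the member with the largest positive difference in both libraries. On the log2((CPM + 1)/(CPM + 1)) scale its difference was 0.74 for IWR1 over NT, exceeded by 6.49% of all genes compared, and 0.80 for Y27 over NT, exceeded by 9.24%. Over all genes, log2 differences varied with the length and GC content of the transcript, and Hsp90aa1 had the lowest GC content of the members, 43.7% against a median of 49.9% over the genes compared. With that trend removed its differences were 0.57 and 0.56, both just under the 1.5-fold line, and those of Hsp90ab1 were -0.02 for IWR1 and -0.11 for Y27, against -0.11 and -0.23 without the removal.

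**Figure D2:**
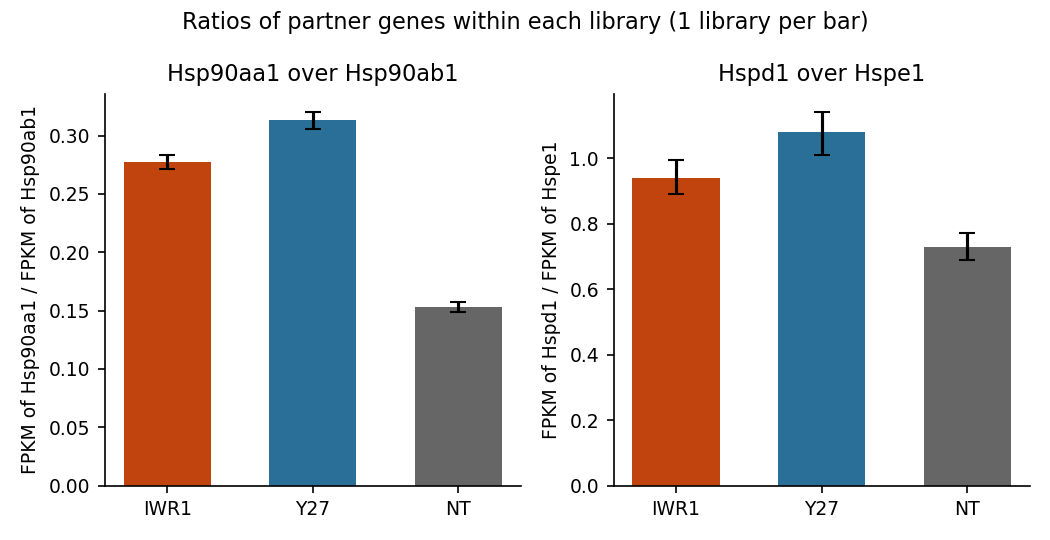
Ratio of Hsp90aa1 to Hsp90ab1 and of Hspd1 to Hspe1, each by FPKM within the IWR1, Y27 and NT library (1 library per bar, error bars 95% counting intervals). The HSP90 ratio is 0.277 in IWR1 and 0.313 in Y27 against 0.153 in NT, and the chaperonin ratio is 0.940 in IWR1 and 1.08 in Y27 against 0.729 in NT.

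Hspb1 (Entrez Gene 15507) had the largest negative difference. It had 655 counts in IWR1, 361 in Y27 and 900 in NT, which are 117, 64.7 and 159 CPM, so each inhibitor library was below NT and Y27 was lowest. It was 1.36-fold lower than NT in IWR1 (1.23 to 1.51) and 2.46-fold lower in Y27 (2.17 to 2.79), and IWR1 was 1.81-fold above Y27 (1.59 to 2.06). The log2 difference for Y27 over NT was -1.29, and 0.494% of all genes compared lay below it. Hspb1 is short and GC-rich, with a listed transcript of 913 bases and 61.7% GC, and with the length and GC trend removed the difference was -0.98 for Y27 and -0.20 for IWR1. Fibroblast markers, as a sign of other cells, summed to 81.8 CPM in IWR1, 84.2 CPM in Y27 and 145 CPM in NT, with 0 of 7 compared markers higher in IWR1 than in NT and 1 of 7 higher in Y27. The near-equal sums of the inhibitor libraries held different genes. The collagen gene Col1a1 stood at 54.7 CPM in IWR1, 31.0 CPM in Y27 and 82.2 CPM in NT, and so supplied most of the Y27 difference. Pdgfrb, a growth factor receptor, stood at 1.97 CPM in IWR1, 12.0 CPM in Y27 and 13.8 CPM in NT, and Fbln2, a matrix protein, at 8.22, 22.2 and 24.1 CPM. Both were lower than NT in IWR1, 7.02-fold (3.72 to 14.6) and 2.93-fold (2.08 to 4.18), while in Y27 their intervals held no change. Of the defining markers Dcn had 2 counts in IWR1, 0 in Y27 and 3 in NT, Postn had 0, 1 and 1, and Lum was listed in none of the tables. The part of such cells in the Hspb1 result was not tested. All 8 epiblast markers (Pou5f1, Sox2, Nanog, Fgf5, Otx2, Dnmt3b, Cdh1 and Epcam) were present in every library, with summed levels of 3522, 2574 and 2974 CPM in IWR1, Y27 and NT. They did not move together. In IWR1, 6 were higher than NT and 2 lower, with a median log2 difference of 0.61. There 4 were at least 1.5-fold higher, against 10.8% of all genes. In Y27, 4 were higher and 4 lower, with a median of 0.00.

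In the HSP70 machine, Hspa8 and Dnajb1 were lower than NT in both inhibitor libraries, and Hspa4 was higher in IWR1. Hspa8 (Entrez Gene 15481) was at 3724 CPM in IWR1, 3223 CPM in Y27 and 4069 CPM in NT, 1.09-fold lower than NT in IWR1 (1.07 to 1.11) and 1.26-fold lower in Y27 (1.24 to 1.29). Its J-domain partner Dnajb1 (Entrez Gene 81489) was at 67.1 CPM in IWR1, 66.2 CPM in Y27 and 83.6 CPM in NT, 1.25-fold (1.09 to 1.43) and 1.26-fold (1.10 to 1.45) lower than NT in IWR1 and Y27. Its counts were fractional in every library and are uncertain. Hspa4 (Entrez Gene 15525) was at 959 CPM in IWR1, 825 CPM in Y27 and 818 CPM in NT. It was 1.17-fold higher than NT in IWR1 (1.13 to 1.22), while in Y27 the fold was 1.01 (0.968 to 1.05). Hsph1 (Entrez Gene 15505) was at 216 CPM in IWR1, 206 CPM in Y27 and 200 CPM in NT, with folds over NT of 1.08 (0.996 to 1.17) and 1.03 (0.95 to 1.12). Relative to Hspa8 on counts, Hspa4 was 1.28 times its NT ratio in IWR1 (1.23 to 1.34) and 1.27 times in Y27 (1.22 to 1.33), and Hsph1 was 1.18 times (1.09 to 1.28) and 1.30 times (1.20 to 1.42). The ratio of Dnajb1 to Hspa8 was 0.877 of the NT ratio in IWR1 (0.765 to 1.01) and 1.00 of it in Y27 (0.874 to 1.15). With the length and GC trend removed, log2 differences from NT in IWR1 were -0.17 for Hspa8, -0.18 for Dnajb1, 0.10 for Hspa4 and 0.05 for Hsph1. Without the removal they were -0.13, -0.31, 0.23 and 0.11. In Y27 they were -0.37, -0.16, -0.20 and -0.05 with the trend removed, against -0.34, -0.33, 0.01 and 0.05 without.

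The chaperonin genes, which share a promoter region and the element array shown above, differed in their levels relative to NT. Hspd1 (Entrez Gene 15510) was at 855 CPM in IWR1, 831 CPM in Y27 and 672 CPM in NT, 1.27-fold (1.22 to 1.33) and 1.24-fold (1.18 to 1.29) higher than NT in IWR1 and Y27. Hspe1 (Entrez Gene 15528) was at 296 CPM in IWR1, 251 CPM in Y27 and 300 CPM in NT, with a fold of 0.986 in IWR1 (0.920 to 1.06) and 1.19-fold lower in Y27 (1.11 to 1.28). The ratio of Hspd1 to Hspe1 by FPKM was 0.940 in IWR1 (0.889 to 0.995), 1.08 in Y27 (1.01 to 1.14) and 0.729 in NT (0.688 to 0.772). On counts it was 1.29 times the NT ratio in IWR1 (1.19 to 1.40) and 1.48 times in Y27 (1.36 to 1.60). The listed transcripts differ in length, 2347 bases for Hspd1 and 788 bases for Hspe1. With the length and GC trend removed, the log2 differences from NT were 0.32 for Hspd1 and 0.01 for Hspe1 in IWR1, and 0.28 and -0.16 in Y27.

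Hsf1 (Entrez Gene 15499) was at 51.3 CPM in IWR1, 48.8 CPM in Y27 and 47.4 CPM in NT. The folds over NT, 1.08 in IWR1 (0.912 to 1.28) and 1.03 in Y27 (0.866 to 1.22), lay within counting error.

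**Figure D3:**
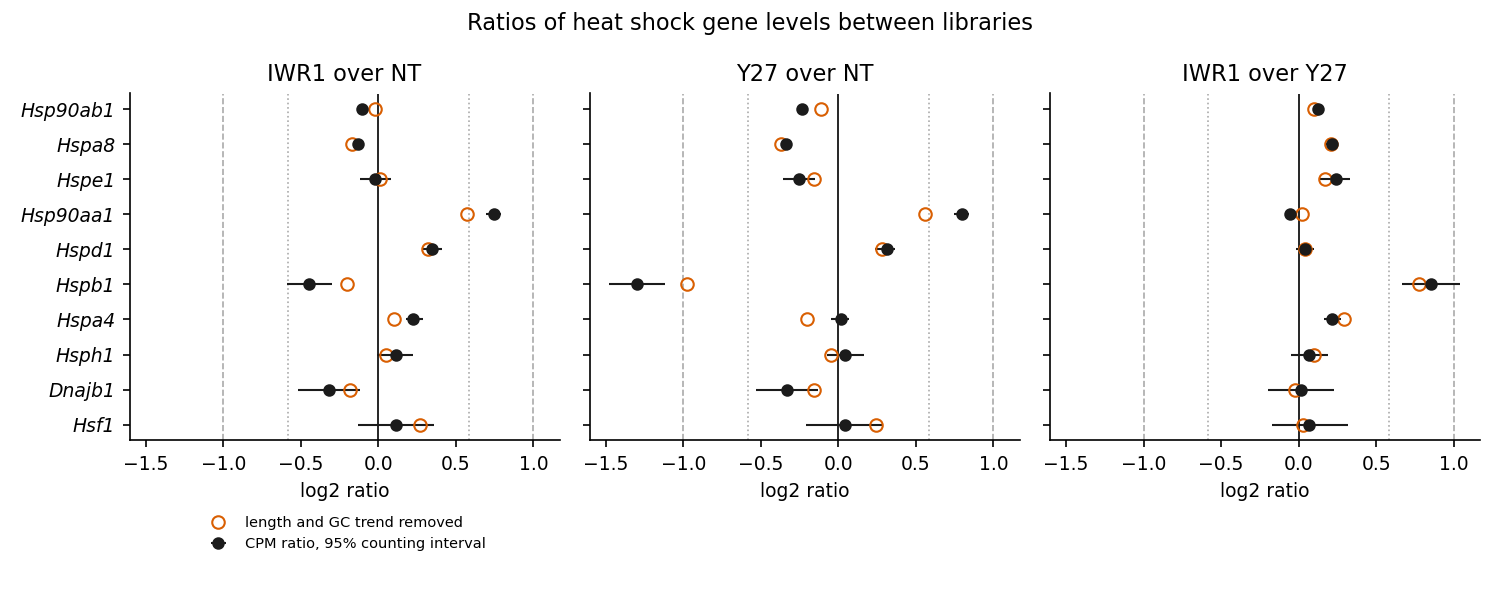
Log2 ratio of CPM between libraries for each gene, as black points with exact 95% counting intervals, in panels for IWR1 over NT, Y27 over NT and IWR1 over Y27. Open circles give the log2((CPM + 1)/(CPM + 1)) difference with the length and GC trend removed, whereas the black points have no CPM added. Dotted lines mark 1.5-fold and dashed lines 2-fold. Hspb1, 2.46-fold lower in Y27 than in NT, passes the 2-fold line, and the open circle at -0.98 does not.

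Counted together in IWR1 over NT, 0 of the 10 members were at least 2-fold apart, against 4.55% of the 12955 genes compared. Hsp90aa1 was at least 1.5-fold higher, 1 of 10 members against 10.8% of all genes, and 0 members were at least 1.5-fold lower, against 6.37%. The median log2 difference of the members was 0.04, beside 0.00 over all genes compared. The counting interval lay above 1 for 3 members and below 1 for 4. In Y27 over NT, Hspb1 was the 1 member at least 2-fold apart, against 6.92% of all genes. Hsp90aa1 was at least 1.5-fold higher, 1 of 10 against 14.9%, and Hspb1 at least 1.5-fold lower, 1 of 10 against 5.53%. The median was -0.11, beside -0.02 over all genes, with 2 counting intervals above 1 and 5 below. Counts of 0 or 1 of 10 are near the shares over all genes. Shares of all genes by counting interval were not computed, and in abundant genes a small fold is enough for the interval to exclude 1. After that trend was taken out, 1.5-fold higher and lower calls numbered 788 and 728 in IWR1 over NT, against 1405 and 825 without it, and 878 and 644 in Y27 over NT, against 1931 and 717.

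In IWR1 over Y27, which does not use the NT library that the other comparisons share, 9 members were higher and 1, Hsp90aa1, was lower, a difference of -0.05 that became 0.02 with the length and GC trend removed. Of all genes compared, 48.0% lay above the 0.02 of Dnajb1, the smallest positive difference of a member. The median was 0.10 beside 0.00 over all genes, with 5 counting intervals above 1 and 1 below. No share of all genes was computed for such intervals. Of the 10 members 0 were at least 2-fold apart, against 4.28% of all genes. Hspb1 was at least 1.5-fold higher in IWR1, 1 of 10 against 5.06%, and 0 members were at least 1.5-fold lower, against 8.20%. Hspa4 and Hspa8 were both 1.16-fold higher in IWR1 than in Y27 (1.12 to 1.21 and 1.13 to 1.18), and Hspe1 was 1.18-fold higher (1.10 to 1.26).

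The summed level of the members rested largely on its 2 most abundant genes and on Hsp90aa1. It was 14039 CPM in IWR1, 12848 CPM in Y27 and 13814 CPM in NT, a fold over NT of 1.02 in IWR1 (1.01 to 1.03) and 0.930 in Y27 (0.921 to 0.940). Hsp90ab1 and Hspa8 supplied 68.5% of these counts in IWR1, 67.1% in Y27 and 75.5% in NT. The other 8 members summed to 4420 CPM in IWR1, 4221 CPM in Y27 and 3390 CPM in NT, 1.30-fold (1.28 to 1.33) and 1.25-fold (1.22 to 1.27) higher than NT. Hsp90aa1 carried most of this, and without it the sum of the remaining 7 was 1.12 times NT in IWR1 (1.10 to 1.15) and 1.01 times NT in Y27 (0.981 to 1.03). Scaling by upper quartile turned the fold of all 10 in IWR1 to 0.987.

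**Figure D4:**
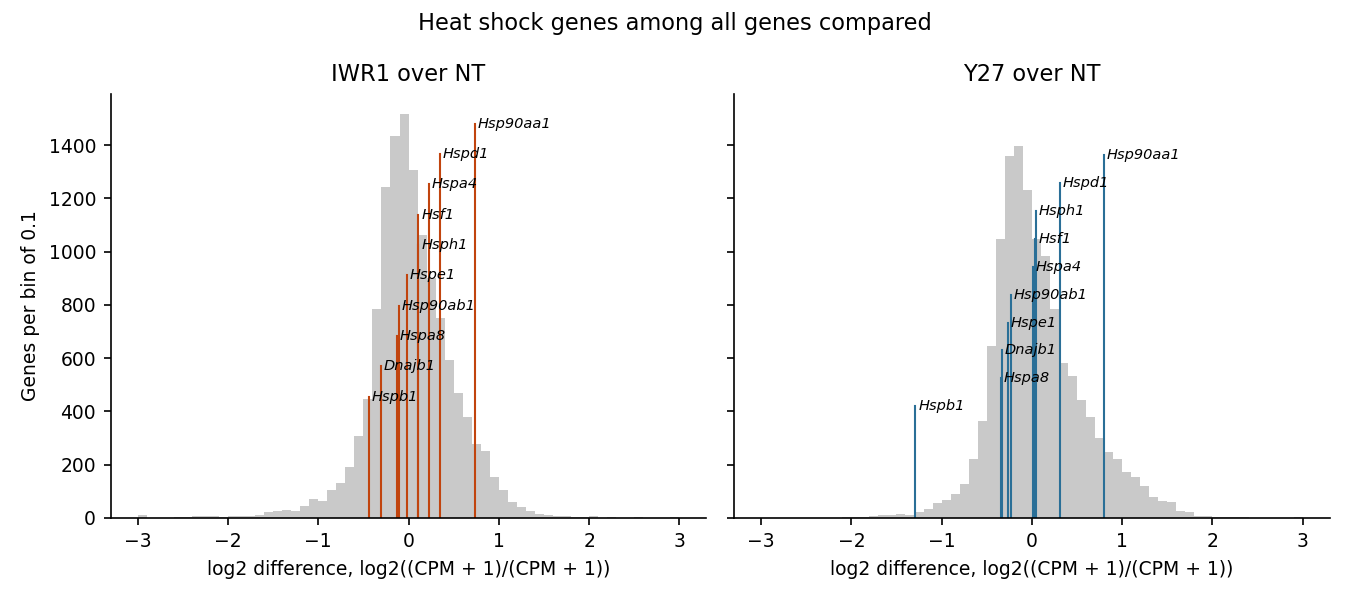
Number of genes per bin of 0.1 in log2 difference from NT (grey bars, 12955 genes, values beyond the axis placed in the end bins) for IWR1 and for Y27, with the 10 heat shock genes as labelled lines whose height has no meaning. Most members lie near the centre, Hsp90aa1 lies to the right in both panels and Hspb1 to the far left in Y27 over NT.

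Other chaperone genes of the same systems were read from 9 lists of 114 further genes, of which 108 were compared. Their median log2 difference was -0.04 for IWR1 over NT and -0.17 for Y27 over NT. At least 1.5-fold from NT were 8 higher and 5 lower in IWR1, and 14 higher and 3 lower in Y27. No share of the 108 was above that over all genes, 10.8% higher and 6.37% lower in IWR1 and 14.9% and 5.53% in Y27, against which the lists that follow are also to be read. With the length and GC trend removed, 8 of the 108 passed 1.5-fold in IWR1 and 7 in Y27, in place of 13 and 17. The stress-induced HSP70 genes were near the bottom of the range. Hspa1a was at 1.95 CPM in IWR1, 2.07 CPM in Y27 and 3.61 CPM in NT, and its near-identical copy Hspa1b was at 6.44, 7.12 and 4.25 CPM. Reads of this pair cannot be fully told apart. Hspa4l, a further HSP110 relative, was at 15 CPM in IWR1, 21.3 CPM in Y27 and 8.84 CPM in NT, 1.70-fold (1.18 to 2.46) and 2.41-fold (1.72 to 3.43) higher than NT.

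Small heat shock proteins other than Hspb1 were low, with a summed level of 37.0 CPM in IWR1, 41.9 CPM in Y27 and 66.6 CPM in NT. Of 7 compared, 3 were at least 1.5-fold lower and 1 higher in IWR1, and 2 were lower and 0 higher in Y27. In IWR1 the higher gene had 12.36 counts against 5.71 in NT, and 1 lower gene had 4 against 12. Both of their intervals held no change. Hspb8, which works with Bag3, was at 16.3 CPM in IWR1, 19.4 CPM in Y27 and 36.1 CPM in NT, 2.22-fold (1.73 to 2.87) and 1.86-fold (1.47 to 2.38) lower than NT. Cryab, alpha-B crystallin, was at 9.29 CPM in IWR1, 10.8 CPM in Y27 and 19.6 CPM in NT, 2.11-fold (1.51 to 3.0) and 1.83-fold (1.32 to 2.54) lower. Hspb1, Hspb8 and Cryab were each below NT in both inhibitor libraries, and Hspb1 alone of the 3 was lower in Y27 than in IWR1.

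Co-chaperones of HSP90 and HSP70 had a median of -0.08 in IWR1 and -0.22 in Y27 over 23 genes. At least 1.5-fold higher were 1 in IWR1 and 3 in Y27, and 0 were lower in either. Ppid, a cyclophilin that binds HSP90, was at 163 CPM in IWR1, 156 CPM in Y27 and 101 CPM in NT, 1.62-fold (1.45 to 1.80) and 1.54-fold (1.38 to 1.72) higher than NT, on partly fractional counts. Chordc1, an HSP90 co-chaperone, was 1.42-fold (1.24 to 1.63) and 1.53-fold (1.33 to 1.75) higher, at 87.9 CPM in IWR1 and 94.6 CPM in Y27 against 61.9 CPM in NT. Ahsa2, related to an activator of the HSP90 ATPase, was at 65.2 CPM in IWR1, 89.4 CPM in Y27 and 48.8 CPM in NT. Bag3, a nucleotide exchange factor, was at 68.6 CPM in IWR1, 48.0 CPM in Y27 and 62.1 CPM in NT.

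J-domain proteins had 2 of 19 at least 1.5-fold higher in IWR1 and 4 of 19 in Y27, with 0 lower in either, near the 10.8% and 14.9% of all genes that were higher. Dnajc2, a J-domain protein of the ribosome-associated complex, was at 121 CPM in IWR1, 107 CPM in Y27 and 68.6 CPM in NT, 1.76-fold (1.55 to 2.00) and 1.56-fold (1.37 to 1.78) higher. Dnajb4 was at 5.0 CPM in IWR1, 11.1 CPM in Y27 and 5.31 CPM in NT, 2.09-fold (1.33 to 3.36) higher than NT in Y27. The chaperonin TRiC and prefoldin, which fold actin and tubulin among others, had 0 of 14 genes at least 1.5-fold apart from NT in either library, with medians of -0.05 in IWR1 and -0.21 in Y27. Mitochondrial chaperones and proteases likewise had 0 of 12, with medians of -0.03 and -0.18. Among them Hspa9, mitochondrial HSP70, was at 683 CPM in IWR1, 563 CPM in Y27 and 621 CPM in NT. Of 15 chaperones of the endoplasmic reticulum, 0 passed 1.5-fold in IWR1 and 1 in Y27. That gene was Hsp90b1, the HSP90 of that compartment, at 534 CPM in IWR1, 698 CPM in Y27 and 376 CPM in NT, 1.42-fold (1.34 to 1.5) and 1.86-fold (1.76 to 1.96) higher than NT.

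A list of 18 further genes known as Hsf1 targets, which shares members with the lists above, had a median of -0.10 in IWR1 and -0.27 in Y27. At least 1.5-fold from NT were 2 higher and 3 lower in IWR1, and 5 higher and 2 lower in Y27, beside all-gene shares of 10.8% higher and 6.37% lower in IWR1 and 14.9% and 5.53% in Y27. Of 4 further heat shock factors and regulators compared, 1 was at least 1.5-fold higher than NT in each inhibitor library. That gene was Sirt1, a deacetylase that acts on Hsf1, at 50.9 CPM in IWR1, 58.6 CPM in Y27 and 29.9 CPM in NT. Hsf2, a related heat shock factor, was at 30 CPM in IWR1, 38.0 CPM in Y27 and 26.5 CPM in NT.

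**Figure D5:**
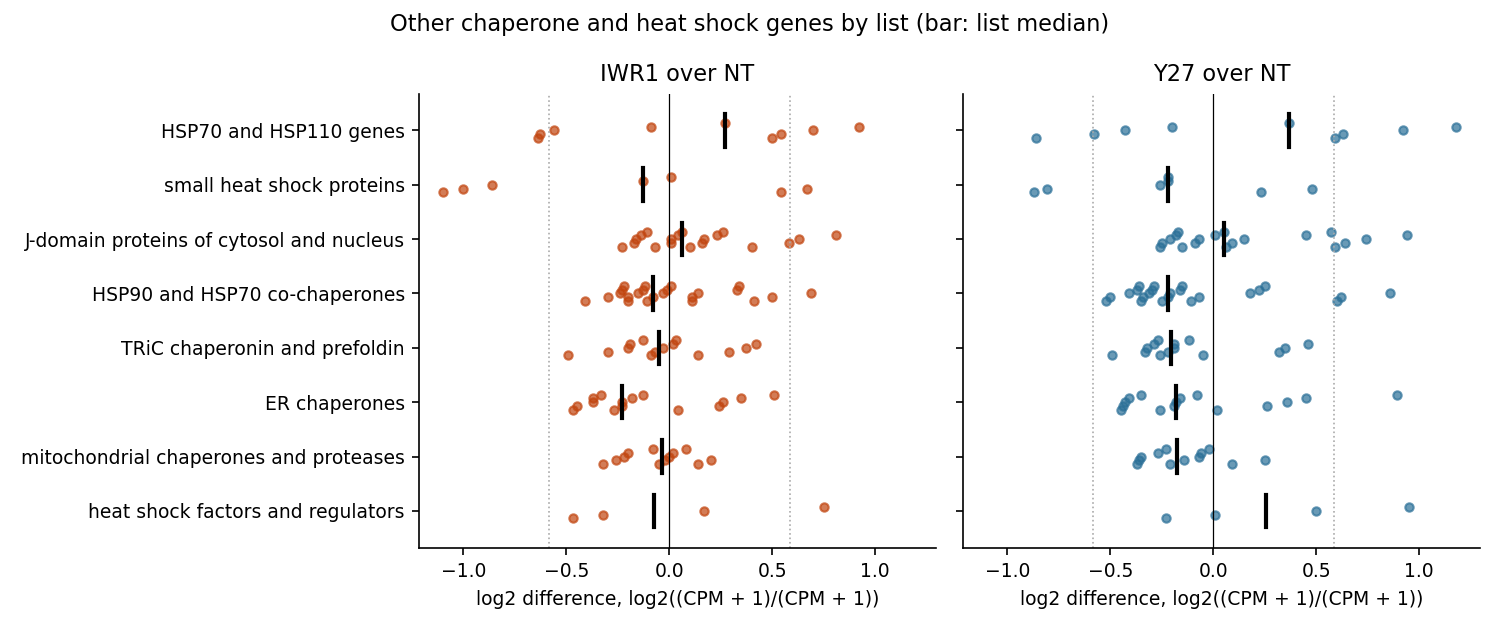
Log2 difference from NT of each further chaperone or heat shock gene compared, by list, for IWR1 and for Y27. Black bars give list medians and dotted lines mark 1.5-fold and the TRiC and mitochondrial lists hold no gene beyond the dotted lines.

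Many genes shared the profile of Hspa8, Hspd1 or Hsph1, the only members for which this was examined. Likeness was measured as the distance between the pairs of log2 differences from NT, over 3 libraries and the 4585 genes whose mean was 50 CPM or more. Nearest to Hspa8 were Yipf3, Me2 and Rpl7l1, at distances of 0.002, 0.004 and 0.006, with 445 genes within 0.1. Nearest to Hspd1 were Rabggtb, Fam120a and Tpp1, at 0.016, 0.020 and 0.021, with 108 genes within 0.1, and nearest to Hsph1 were Rwdd1, Utp3 and Gm15645, with 240 genes within 0.1.

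The libraries summed to 5607725 counts in IWR1, 5459332 in Y27 and 5767550 in NT. Long noncoding RNAs set as markers of RNA quality had a summed level of 785 CPM in IWR1, 1055 CPM in Y27 and 353 CPM in NT over Malat1, Neat1, Meg3 and H19. Malat1 held most of each sum, at 628 CPM in IWR1, 857 CPM in Y27 and 264 CPM in NT. Neat1 and Meg3 were also above NT in both inhibitor libraries. H19, at 6.57, 4.95 and 5.60 CPM, did not differ from NT beyond counting error. Immediate early genes summed to 403 CPM in IWR1, 305 CPM in Y27 and 496 CPM in NT. The part of either in the differences above was not tested.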

How the data were processed

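The study measured RNA in 3 EpiSC libraries, 1 per group, with groups taken from the labels. The tables hold expected counts and FPKM by Entrez gene, per the file headers. The authors deposited these estimated counts without scaling, and FPKM scaled by them to transcript length and library size. The submitters' processing notes name Bowtie 0.12.2 and mm8, and the tool that counted reads is not known from the sources used. Symbols and promoters came from RefSeq tables for GRCm38.p6, whose coordinates were used for promoters only, with untranslated regions from the GENCODE annotation of that assembly.

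TMM factors of 0.998, 1.02 and 0.980 in IWR1, Y27 and NT (edgeR 4.0.16, R 4.3.3) turned expected counts into CPM, and 1 CPM was added before taking log2. Genes averaging 1 CPM or more were compared, and 2-fold and 1.5-fold were the thresholds. Counts were rounded for the exact conditional binomial 95% intervals of folds. A gene not listed in a library was taken as 0. The alternatives were pseudocounts of 0.1 and 5 CPM, other scalings (library total, DESeq2 1.42.0 size factors, upper quartile), other level filters, FPKM values, and removal of a surface of degree 3 in log2 length and GC content (GC found for 96.1% of genes compared). The members and lists were chosen with earlier results of these data known. Named genes were all members, up to 3 per list with the largest differences in a comparison among genes averaging 5 CPM or more with 30 reads in the higher library, and the 3 nearest genes of 3 members. Hspa1a, the remaining markers of the epiblast, fibroblast and RNA quality lists, and the ratios between members were chosen outside this rule, after their values were seen. Scripts were tested on simulated data. Protein sequences were not used here. Other steps used scipy 1.17.1, pandas 2.3.3 and numpy 2.4.6 in Python 3.11.15.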

Additional observations from a re-analysis of the deposited data

How the results depend on the processing

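No paired analysis was possible because each group was 1 library with no replicate. The alternative settings include level filters, which change only the genes compared and so could not move a member's log2 difference. Of 270 member log2 differences recomputed under these settings, 236 stayed within their counting interval and 33 moved beyond it. The remaining 1 was that of Hsp90aa1 for IWR1 over Y27. Its counting interval excluded no change, and its sign changed, to 0.02 with the length and GC trend removed. With that trend removed, 0 members passed 1.5-fold in IWR1 over NT, and 0 passed 2-fold and 1 passed 1.5-fold in Y27 over NT, with Hsp90aa1 at 0.57 and 0.56 and Hspb1 at -0.98 in Y27. Other chaperone genes past 1.5-fold then numbered 8 in IWR1 over NT and 7 in Y27 over NT. With a pseudocount of 5 CPM they numbered 6, 11 and 1 in IWR1 over NT, Y27 over NT and IWR1 over Y27, and with a mean of at least 5 CPM 1 in IWR1 over Y27. The fold of the summed members was 1.03, 0.970 and 1.07 with scaling by library total, and 0.987, 0.891 and 1.11 with scaling by upper quartile, in the same order of comparisons, so its sign for IWR1 over NT depended on the scaling. It was 1.08 for IWR1 over Y27 with deposited FPKM values. Differences whose counting interval held no change also crossed 0 between settings, such as Hspa4 (-0.20 to 0.07), Hsf1 (-0.02 to 0.24) and Hsph1 (-0.05 to 0.11) for Y27 over NT. The -0.20 of Hspa4, with the length and GC trend removed, lay beyond its counting interval. Depth limited Hspa1a and other genes of a few CPM, whose intervals span more than 2-fold.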
